A study of Mus musculus with 2 samples.

Results

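The noncoding RNAs of the splicing machinery and the other abundant small nuclear RNAs were described in mouse embryonic stem (ES) cells and in embryonic forebrain. All genes were taken whose symbol in both gene tables was exactly U1, U2, U4, U5, U7, U11, U12, 7SK, RNase_MRP, RNaseP_nuc, Metazoa_SRP, Vault or Telomerase-vert. This gave 384 of the 29311 listed genes, or 1.31%, and these 384 copies fell into 12 of the 13 RNA classes, since no listed gene carried the name Metazoa_SRP. The annotation of the same genome build (NCBIM37, mm9) holds 792 copies under these names, and only genes above 0 in at least 1 sample were listed.

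The study examined how Hox gene clusters fold when silent and when active, and its RNA-seq compared ES cells with forebrain, in each of which transcripts were measured from ribosome-depleted total RNA. The ES cell sample was the wild-type E14 line. The forebrain sample came from wild-type B6CBAF1/J embryos at E10.5, a stage named by days of embryonic development. Each group was 1 library, so there is no replicate check: no difference below could be tested, and intervals cover the counting error of reads only. Cell type, strain and RNA reagent (Trizol for ES cells, Trizol LS for forebrain) cannot be told apart.

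Spliceosomal small nuclear RNAs (snRNAs) are the catalytic and recognition parts of the spliceosome, where each is held in a particle with a ring of Sm proteins. U1 pairs with the 5′ splice site, U2 with the branch point, U4 keeps U6 inactive until activation, and U5 aligns the exons, while U11 and U12 take the places of U1 and U2 for the rare minor introns. The other RNAs do different work: 7SK restrains the elongation kinase P-TEFb, RNase P and RNase MRP are ribonucleases that process tRNA and rRNA precursors, U7 guides the 3′ end processing of histone mRNA, the vault RNA is part of the vault particle, and Telomerase-vert is the template RNA of telomerase. In mammals these RNAs are encoded by few working genes among many diverged copies spread over the genome, and near-identical copies compete for the same reads.

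The sequences below show the elements that define U1, U2, U4, U11, U12 and U7, as the annotated genome copies hold them, written 5′ to 3′ on the transcribed strand of NCBIM37. Capitals mark a stretch known to pair with the substrate (ATACTTACCTG, the first 11 bases, at the start of U1, GTAGTA in U2, AAGGAA in U12) or the Sm site (ATTTNTG or ATTTTTT, with ATTTGTC in U7). The U1 gene Rnu1a1 lies at chr11:87236369-87236532 (+ strand), and the U1 copy with the highest level at chr19:18807231-18807394 (+).
Rnu1a1: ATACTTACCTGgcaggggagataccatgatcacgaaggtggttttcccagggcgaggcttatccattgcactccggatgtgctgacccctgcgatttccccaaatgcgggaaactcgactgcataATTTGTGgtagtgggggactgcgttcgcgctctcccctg
U1, chromosome 19: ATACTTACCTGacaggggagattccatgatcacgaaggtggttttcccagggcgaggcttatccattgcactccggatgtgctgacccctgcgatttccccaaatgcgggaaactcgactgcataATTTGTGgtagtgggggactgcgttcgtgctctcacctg
Positions counted from 1 at the 5′ end of Rnu1a1, the chromosome 19 copy carries the 4 substitutions G12A, A23T, C153T and C160A, all outside both capitalised elements. The U2 gene Rnu2-10 lies at chr11:101519552-101519742 (+), and the U2 copy with the highest level at chr1:72272814-72273004 (+).
Rnu2-10: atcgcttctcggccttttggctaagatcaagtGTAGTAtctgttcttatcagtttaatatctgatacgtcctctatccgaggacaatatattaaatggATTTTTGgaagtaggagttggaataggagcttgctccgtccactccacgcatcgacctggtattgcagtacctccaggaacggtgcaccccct
U2, chromosome 1: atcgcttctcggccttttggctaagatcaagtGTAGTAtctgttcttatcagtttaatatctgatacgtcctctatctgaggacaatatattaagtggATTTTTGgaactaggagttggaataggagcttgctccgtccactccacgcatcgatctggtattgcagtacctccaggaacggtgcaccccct
They differ at C78T, A95G, G109C and C154T, counted from the 5′ end of Rnu2-10. The highest copies of U4 at chr5:115940263-115940403 (+), U11 (Rnu11) at chr4:131825995-131826128 (- strand), U12 (Rnu12) at chr15:82980074-82980224 (+) and U7 (Rnu7) at chr6:124691243-124691304 (-) follow.
U4, chromosome 5: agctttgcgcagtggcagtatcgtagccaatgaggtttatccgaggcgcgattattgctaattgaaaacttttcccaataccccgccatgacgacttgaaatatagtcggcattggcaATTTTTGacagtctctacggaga
Rnu11: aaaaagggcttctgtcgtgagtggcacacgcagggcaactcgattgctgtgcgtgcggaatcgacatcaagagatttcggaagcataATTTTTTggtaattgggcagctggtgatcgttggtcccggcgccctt
Rnu12: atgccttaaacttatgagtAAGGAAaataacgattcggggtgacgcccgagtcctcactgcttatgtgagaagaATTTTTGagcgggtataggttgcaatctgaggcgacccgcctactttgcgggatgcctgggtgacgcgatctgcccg
Rnu7: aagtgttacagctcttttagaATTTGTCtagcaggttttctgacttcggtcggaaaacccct

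Copies with an intact element held most of the summed level in U1, U2, U4 and U5, but not in U7. ATACTTACCTG stood in 39 of the 114 listed U1 copies, and these held 90.4% of the summed U1 level in ES cells and 93.1% in forebrain. The 11 bases occurred in 0% of 22551 windows of 162 bases, the first bases of a protein-coding transcript of each gene, searched on the transcribed strand only. GTAGTA stood in 18 of 30 U2 copies with 98.9% and 99.7% of the level (0.915% of windows of 189 bases), and GCCTTTTAC, a loop of U5 that contacts the exons, in 9 of 10 U5 copies with 99.9% in each sample (0.031% of windows of 116 bases). The 6 of 22 U4 copies with an Sm site held 99.9% in each sample. In U7 a single copy of 29, Rnu7, held ATTTGTC, and it carried 22.9% and 44.3% of the class. AAGGAA was in all 5 listed U12 copies, and is itself in 6.32% of windows of 151 bases. The Sm site was in 4 of these 5, which held 72.4% and 72.1% of U12. These matches describe letters, not functional sites.

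Together, the 384 copies reached 13073452 RPKM in ES cells and 10942720 in forebrain. RPKM is the deposited level, reads per kilobase of exon, with a scale that the sources used here do not give and that is not the usual scale to library depth. Reads were therefore inferred from the step that 1 read adds per kilobase. The copies held 20.98% of all summed RPKM in ES cells and 21.2% in forebrain, but 6.52% and 5.77% of the inferred reads (2784321 of 42733479 and 3447792 of 59739886), since they are short. The forebrain library was 1.40 times deeper. The ratio of the summed RPKM, ES cells over forebrain, was 1.19, and it was 0.989 when each sample was scaled to its own total. That scaling lowers every log2 ratio by 0.27, and scaling by the median ratio of protein-coding genes raises it by 0.14. The levels are those of a tissue against a culture: all 7 ES cell markers were over 2-fold higher in ES cells (Pou5f1 at 11244 and 42.9 RPKM), all 7 forebrain markers were over 2-fold higher in forebrain (Nes at 183 and 4127), and so were 4 of 4 blood markers (summed 271 and 520732 RPKM), 4 of 4 mesenchyme markers (37.4 and 13282) and 3 of 4 endothelium markers (579 and 1551). No marker of these lists was at 0 in either sample. The part of blood, vessels and mesenchyme in the levels of the small RNAs was not tested, and in bulk RNA fewer cells of a type and less RNA per cell cannot be told apart.

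Of the 12 classes, 9 had the higher summed RPKM in ES cells and U4, U11 and 7SK in forebrain. The largest ratios belonged to RNaseP_nuc (3.69), Telomerase-vert (2.96) and Vault (2.04), and the lowest to U11 (0.698). U12 differed little (1.05) and U5 by 1.16. Both turned to the forebrain side when samples were scaled to their totals (0.867 and 0.957), and U12 also with samples scaled by inferred reads (0.982). The other 10 classes kept their direction under every scaling, and with identical copies counted once, full-length copies only or reads in place of RPKM. Without the highest copy each also kept it, except RNase_MRP, whose single copy leaves no value. U7 is among these 10, but its ratio of 1.36 had a counting interval of 0.842 to 2.23, so it had no detectable direction at this depth.

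**Figure D1:**
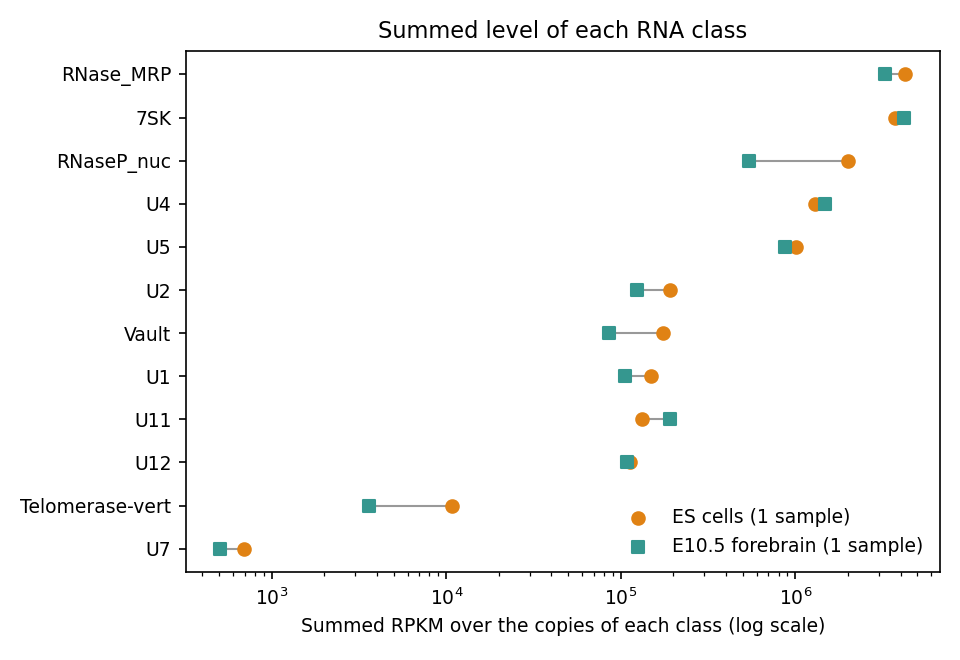
Summed RPKM of the copies of each RNA class (x axis, log scale) in 1 ES cell sample (orange circles) and 1 E10.5 forebrain sample (green squares), joined by a grey line. RNaseP_nuc, Telomerase-vert and Vault lie furthest apart with the ES cell value on the right, while U12 (113098 and 107970) nearly coincides.

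The major spliceosomal classes U1, U2, U4 and U5 summed to 2638419 RPKM in ES cells and 2581726 in forebrain, a ratio of 1.02. The minor classes U11 and U12 summed to 245986 and 298443, a ratio of 0.824. Major over minor was thus 10.7 in ES cells and 8.65 in forebrain. Within the major group the listed levels were very unequal, with U4 and U5 far above U1 and U2. Stretches of 50 bases at over 5 places of the genome made up 18.03% of U1, 19.0% of U2 and 18.8% of U5. They made up 0% of U4, U11 and U12. Among U1 copies of at least 95% identity to Rnu1a1 the share was 77.1%. How reads of such stretches were counted is not given in the sources used here. The unequal levels, and the ratios of major over minor, may therefore not reflect amounts of RNA.

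U1, the RNA that marks the 5′ splice site, summed to 148026 RPKM in ES cells and 105186 in forebrain over 114 of its 206 annotated copies, a ratio of 1.41 (counting interval 1.37 to 1.42). The highest copy, on chromosome 19 (ENSMUSG00000064941), was at 39109 and 40955 RPKM, a ratio of 0.955, and it alone held 26.4% and 38.9% of the class. The next, on chromosome 12 at chr12:55797769-55797932 (ENSMUSG00000075736), was at 31427 and 14804 (ratio 2.12), and it differs from Rnu1a1 by T60C. The third, in an intron of Rock1 on chromosome 18 (ENSMUSG00000065941), was at 18144 and 11005 (ratio 1.65). These 3 copies are intergenic or intronic and did not move alike: the highest was slightly higher in forebrain while the following pair were higher in ES cells.

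The U1 genes with their own names held a small part of the class. Rnu1a1 was at 458 RPKM in ES cells and 144 in forebrain, or 0.31% and 0.14% of U1, from 61.5 and 28.8 reads. Its ratio was 3.18 (counting interval 1.98 to 5.06). It lies in an intron of Tex14 on the same strand, as does the identical copy ENSMUSG00000070194. Tex14 was at 140 RPKM in ES cells and 2.78 in forebrain. Whether the level of Rnu1a1 holds reads of Tex14 was not tested. The U1b genes, an embryonic form of U1 in mouse, were also higher in ES cells. Rnu1b1 was at 5727 and 3846 RPKM, Rnu1b2 at 5449 and 3661, and Rnu1b6 at 1705 and 932. Their ratios of 1.49, 1.49 and 1.83 were above the 1.41 of the whole class and below that of Rnu1a1. A higher level in ES cells was thus not particular to U1b. Of the 50-base stretches of Rnu1b1 and Rnu1b2, 71.6% lie at over 5 places, and of those of Rnu1b6 81.2%. All 50-base stretches of Rnu1a1 lie at over 5 places of the genome. A read of 50 bases that lies wholly within it therefore cannot be told apart by sequence from reads of other copies. Rnu1a1 is 1 of 7 identical U1 copies, whose listed levels nevertheless ranged from 291 to 2126 RPKM in ES cells and from 94.0 to 1751 in forebrain. Which reads make up these unequal levels was not tested. The 2 identical copies Rnu1b1 and Rnu1b2 lay within 1.05-fold of each other in each sample.

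Across bins of identity to Rnu1a1, the median level was higher in the closer bins. The 23 U1 copies of at least 95% identity held 87.7% of the class in ES cells and 90.2% in forebrain, with a median of 1420 and 770 RPKM. The 26 copies of 80 to 95% had a median of 126 in each sample, and the 65 copies under 80% a median of 14.3 and 15.1. Within the closest bin the identical copies were not the highest. The 7 copies identical to Rnu1a1 summed to 6489 RPKM in ES cells and 4202 in forebrain. The highest copy, at 39109 and 40955, is 97.6% identical. Among the closest 23 copies, 77.1% of 50-base stretches lie at over 5 places, against 0.654% among the 65 most diverged. In a stretch of 41841 bases on chromosome 12, 7 close copies held 31.5% and 24.9% of U1, and 8 copies in 160469 bases of chromosome 3 held 11.9% and 10.4%.

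U2, which pairs with the branch point, summed to 190695 RPKM in ES cells and 124419 in forebrain over 30 of 51 annotated copies, a ratio of 1.53 (counting interval 1.50 to 1.55). The chromosome 1 copy printed above (ENSMUSG00000075752) was at 52214 and 23422 RPKM, a ratio of 2.23. A chromosome 12 copy at chr12:60141322-60141512 (ENSMUSG00000065232) was at 45871 and 12088, a ratio of 3.79, and differs from Rnu2-10 at 9 positions. These are dispersed copies outside any gene, and both were higher in ES cells.

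The tandem U2 genes had the opposite direction. Rnu2-10 was at 11017 RPKM in ES cells and 13471 in forebrain, a ratio of 0.818. Together with 4 further copies it lies in 53579 bases of chromosome 11 (chr11:101466164-101519742), where the 5 copies ranged from 10816 to 11369 RPKM in ES cells and from 13422 to 13711 in forebrain. All 5 had the higher value in forebrain, but 4 of them are identical in sequence and share their reads, so they are not 5 separate measurements. The array held 28.9% of U2 in ES cells and 54.4% in forebrain. The third U2 copy by level, on chromosome 11 at chr11:83085000-83085190 (ENSMUSG00000064856), was at 16752 and 14062, a ratio of 1.19.

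U4, the partner that keeps U6 inactive, summed to 1290356 RPKM in ES cells and 1478979 in forebrain, a ratio of 0.872 (counting interval 0.867 to 0.878). A pair of genes 936 bases from end to end on chromosome 5 held 74.0% and 72.7% of it. The first of the pair, printed above (ENSMUSG00000075779), was at 480327 and 540802 RPKM, and its neighbour (ENSMUSG00000075998) at 474138 and 534120. The neighbour differs by A88G and A99C, and both had a ratio of 0.888. A diverged copy on chromosome 4 at chr4:83173532-83173672 (ENSMUSG00000064606), with 11 substitutions against the first, was at 329410 and 397114, a ratio of 0.83. All 3 were higher in forebrain. The other 19 U4 copies together held under 1% of the class in each sample.

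U5, which holds the exons together, summed to 1009342 RPKM in ES cells and 873142 in forebrain, a ratio of 1.16 (counting interval 1.15 to 1.17). Rnu5g was at 265006 and 243780 RPKM (ratio 1.09). Its chromosome 9 neighbour (ENSMUSG00000075763), which differs at 3 positions, was at 185476 and 177320 (ratio 1.05). A chromosome 4 copy at chr4:116862547-116862662 (ENSMUSG00000064430) was at 167809 and 138759 (ratio 1.21). The 3 copies in that group on chromosome 4 had a joint ratio of 1.24, and the 2 on chromosome 9 of 1.07.

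Among the U5 variants, 2 stood at opposite ends. They were chosen after their values were seen. A copy on chromosome 1 in an intron of Hhat on the opposite strand (ENSMUSG00000064881) was at 82477 RPKM in ES cells and 28884 in forebrain, a ratio of 2.86. Another copy on chromosome 1 (ENSMUSG00000065033) was at 42045 and 71930, a ratio of 0.585. It lies in an exon of the noncoding gene B930036N10Rik on the same strand, which was itself listed at 3824 and 6487, so reads of both cannot be told apart. The U5 variants are thus not a uniform group in these samples.

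U11 is the 5′ splice site RNA of the minor spliceosome and was the class with the lowest ratio. It summed to 132887 RPKM in ES cells and 190474 in forebrain over 5 copies, a ratio of 0.698 (counting interval 0.683 to 0.711). Rnu11 was at 95736 and 138272 RPKM (ratio 0.692), a 102-base copy in an intron of Piwil2 (ENSMUSG00000077577) at 26912 and 37914 (0.71), and an X chromosome copy (ENSMUSG00000077303) at 10120 and 14029 (0.721). All 5 copies were higher in forebrain, and 100% of their 50-base stretches are unique in the genome. The number of mismatches allowed in mapping is not given in the sources used here, so reads of Rnu11 and of its like copies (71.6% and 88.8% identity for the next 2) may not be fully separate.

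U12, the branch point RNA of minor introns, summed to 113098 RPKM in ES cells and 107970 in forebrain (ratio 1.05, counting interval 1.03 to 1.07). Rnu12 was at 39520 and 37445 RPKM (ratio 1.06). The next copy, on chromosome 14 (ENSMUSG00000065836), was at 31269 and 30081 (1.04), and the third, on chromosome 5 (ENSMUSG00000064851), at 30191 and 29340 (1.03). All 3 had the slightly higher value in ES cells as deposited, a direction that the U12 sum lost with samples scaled to their totals (0.867) or by inferred reads (0.982). Of the 50-base stretches of Rnu12, 53.9% lie at 2 to 5 places, so its reads may not be fully separate from those of other places.

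**Figure D2:**
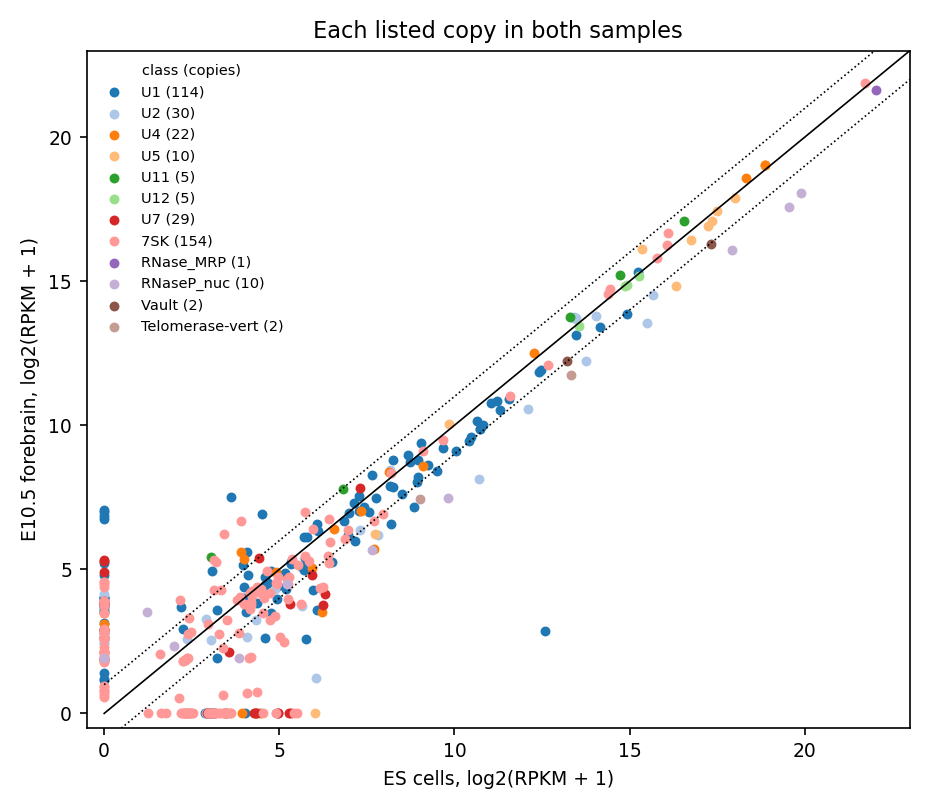
Each of the 384 listed copies as log2(RPKM + 1) in ES cells (x axis) and E10.5 forebrain (y axis), coloured by RNA class, with the line of equal level and dotted lines at 2-fold. Most of the high copies lie between the dotted lines, the 3 high RNaseP_nuc copies lie below them, a U1 copy in an exon of Tcfcp2l1 stands alone at 6151 and 6.30 RPKM, and low copies scatter to 0 on both axes.

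7SK, the RNA that holds P-TEFb inactive, had the highest summed RPKM in forebrain. It summed to 3738837 RPKM in ES cells and 4161887 in forebrain over 154 of its 331 annotated copies, a ratio of 0.898 (counting interval 0.896 to 0.901). The Rn7sk gene at chr9:78023110-78023440 was at 3486979 and 3859678 RPKM, a ratio of 0.903, and held 93.3% and 92.7% of the class. The next copies, in introns of Zfp318 (ENSMUSG00000065808) and Celf2 (ENSMUSG00000065824), were at 69505 and 105081 (ratio 0.661) and at 68796 and 78097 (ratio 0.881). The 144 copies under 80% identity to Rn7sk held 0.0953% and 0.0707% of the class, with a median of 7.82 and 5.03 RPKM. The class sum of 7SK was thus nearly that of Rn7sk. Of the 50-base stretches of Rn7sk, 68.1% lie at 2 to 5 places, and of those of the Celf2 copy 68.4%. Their reads may therefore not be fully separate from those of other places.

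RNase MRP, which processes pre-rRNA, had the highest summed RPKM in ES cells, although 7SK, a longer RNA, had more inferred reads there (1011173 against 946183). Its single listed gene, Rmrp at chr4:43505660-43505930 (- strand), was at 4267504 RPKM in ES cells and 3270136 in forebrain, a ratio of 1.30 (counting interval 1.30 to 1.31). Rmrp overlaps an exon of Ccdc107 on the opposite strand, and Ccdc107 was listed at 493951 and 372384 RPKM, a ratio of 1.33. Whether reads were counted by strand is not given in the sources used here, so reads of Rmrp and Ccdc107 cannot be told apart.

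RNaseP_nuc, the RNA of the ribonuclease that trims the 5′ end of tRNA precursors, had the largest ratio. It summed to 1996216 RPKM in ES cells and 540441 in forebrain, a ratio of 3.69 (counting interval 3.67 to 3.71). The copy on chromosome 8 (ENSMUSG00000088025) was at 978784 and 272114 RPKM (ratio 3.60), that on chromosome 3 (ENSMUSG00000087775) at 766315 and 197784 (3.87), and that on chromosome 6 (ENSMUSG00000088675) at 249960 and 70275 (3.56). These 3 copies held 99.94% and 99.95% of the class, and all had a ratio above 3.5. The other 7 copies held under 0.1%.

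The RNase P RNA gene of RefSeq, Rpph1, is not among the copies named RNaseP_nuc. It was found through its protein-coding neighbours Ccnb1ip1 and Parp2 as an entry with a clone name at chr14:51427124-51427442 (- strand), and it was at 3102569 RPKM in ES cells and 1355874 in forebrain, a ratio of 2.29. The sequences of Rpph1 and of the highest RNaseP_nuc copy, at chr8:3803069-3803358 (- strand), are shown since they share long stretches at their 5′ parts and diverge towards the 3′ end; of Rpph1 the first 300 bases are given.
Rpph1: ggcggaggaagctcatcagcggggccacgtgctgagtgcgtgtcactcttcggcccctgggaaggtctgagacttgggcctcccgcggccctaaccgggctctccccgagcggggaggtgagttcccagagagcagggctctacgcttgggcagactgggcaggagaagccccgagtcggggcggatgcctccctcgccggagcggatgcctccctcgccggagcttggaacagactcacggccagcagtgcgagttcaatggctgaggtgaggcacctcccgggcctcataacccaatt
RNaseP_nuc, chromosome 8: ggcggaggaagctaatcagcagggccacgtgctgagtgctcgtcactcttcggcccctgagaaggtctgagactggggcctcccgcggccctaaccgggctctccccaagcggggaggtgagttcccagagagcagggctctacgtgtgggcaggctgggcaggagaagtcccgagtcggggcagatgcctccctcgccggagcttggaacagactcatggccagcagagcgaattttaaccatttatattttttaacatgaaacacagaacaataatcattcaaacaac
The 3 high copies were 77.1, 76.8 and 71.9% identical to Rpph1. The number of mismatches allowed in mapping is not given in the sources used here, so their reads and those of Rpph1 may not be fully separate. With Rpph1 added, the class ratio was 2.69, no longer the largest of the classes but the second, below Telomerase-vert (2.96). Both the named copies and Rpph1 were higher in ES cells, by different factors.

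The signal recognition particle RNA of the rule, Metazoa_SRP, had no listed gene. The RefSeq genes for this RNA, Rn7s1 and Rn7s2, were placed on entries with clone names on chromosome 12. Rn7s1 was at 4098639 RPKM in ES cells and 4446033 in forebrain and Rn7s2 at 4098385 and 4445831, both with a ratio of 0.922. With 99.6% of their 50-base stretches at 2 to 5 places, their reads cannot be told apart. With these and Rpph1 counted in, the share of summed RPKM was 39.1% in ES cells and 41.1% in forebrain.

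Telomerase-vert, the telomerase template RNA, was higher in ES cells. Terc at chr3:96218360-96218782 (- strand) was at 10206 RPKM in ES cells and 3450 in forebrain, a ratio of 2.96 (counting interval 2.79 to 3.13). A second copy on chromosome 3 (ENSMUSG00000065361), 80.1% identical, was at 516 and 171, a ratio of 3.02. Every 50-base stretch of both is unique in the genome. The telomere template CTAACCCT stood in both.

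Vault, the RNA of a large cytoplasmic ribonucleoprotein particle, was also higher in ES cells. Vaultrc5 was at 165671 RPKM in ES cells and 81101 in forebrain, a ratio of 2.04 (counting interval 2.00 to 2.09). A chromosome 8 copy of 90.9% identity (ENSMUSG00000064905) was at 9408 and 4857, a ratio of 1.94. Both had about the same ratio.

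U7, the RNA of histone mRNA 3′ end processing, was barely covered. Its 29 listed copies of 116 annotated summed to 689 RPKM in ES cells and 506 in forebrain from 35.1 and 38.2 reads, and the ratio of 1.36 had a counting interval of 0.842 to 2.23, so a difference was not detectable at this depth. Rnu7, 62 bases long and in an intron of Atn1 on the same strand (Atn1 at 271 and 623 RPKM), was at 158 and 225 RPKM from 7.99 and 17.0 reads, a ratio of 0.701 with an interval of 0.262 to 1.72. The next, on chromosome 15 (ENSMUSG00000089504), was at 78.8 and 16.5 RPKM, and the third, on chromosome 13 (ENSMUSG00000089595), at 75.1 and 12.6, each from under 5 reads. The labels give reads of 100 bases and the study's methods reads of 50 bases, so Rnu7 is shorter than the former.

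**Figure D3:**
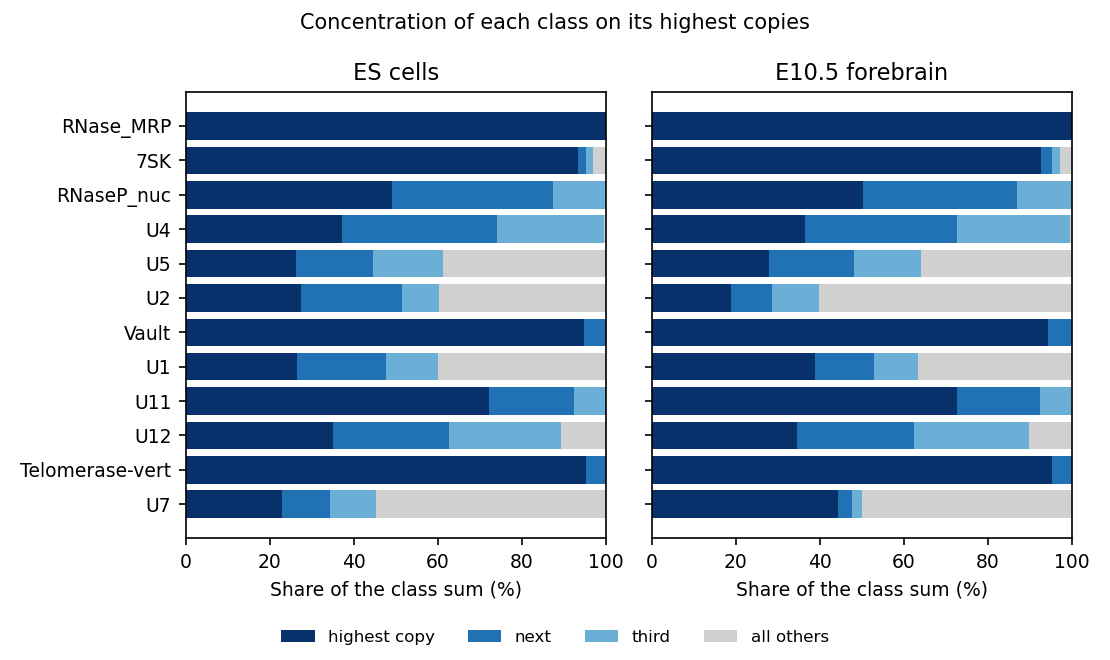
Share of each class's summed RPKM (x axis, %) held by its highest copy, the next, the third and all other copies, in ES cells (left) and E10.5 forebrain (right), with ranks set by the mean of both samples. RNase_MRP, 7SK, Vault and Telomerase-vert rest on 1 copy each, whereas U1, U2 and U5 are spread over several; U2 rests less on its 3 highest copies in forebrain (39.8%) than in ES cells (60.2%).

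Counted copy by copy, 126 of the 384 (32.8%) were over 2-fold higher in ES cells on the log2(RPKM + 1) scale, where 23.3% of all listed genes were, and 87 (22.7%) were over 2-fold higher in forebrain, where 25.8% of all listed genes were. Many of these copies had few reads: 266 copies were under 100 RPKM in both samples. Of the 117 copies with at least 20 reads in either sample, 24 (20.5%) were higher in ES cells and 8 (6.84%) in forebrain, beside 19.3% and 27.9% of all listed genes of that depth. Of the 240 copies with at least 3 reads, 59 (24.6%) and 37 (15.4%) were, beside 22.5% and 27.2% of all listed genes of that depth. These filters keep a copy through whichever sample is higher, so the counts are a description. The median log2 ratio was 0.28 for those 240 copies and -0.06 for all listed genes of that depth.

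The number of copies above 0 was close in both samples. Above 0 were 307 copies in ES cells and 319 in forebrain, 242 of them in both, 65 in ES cells alone and 77 in forebrain alone. The same counts over all listed genes are not given here, and the forebrain library was 1.40 times deeper, so these counts are a description. The 10 highest copies held 87.8% of the summed level in ES cells and 87.4% in forebrain, and 16 copies exceeded 100000 RPKM in either sample. Levels of the copies in the 2 samples had a Spearman correlation of 0.724 over all 384, and of 0.942 over the 117 with at least 20 reads. These copies share reads and gene models, so the value is a description.

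**Figure D4:**
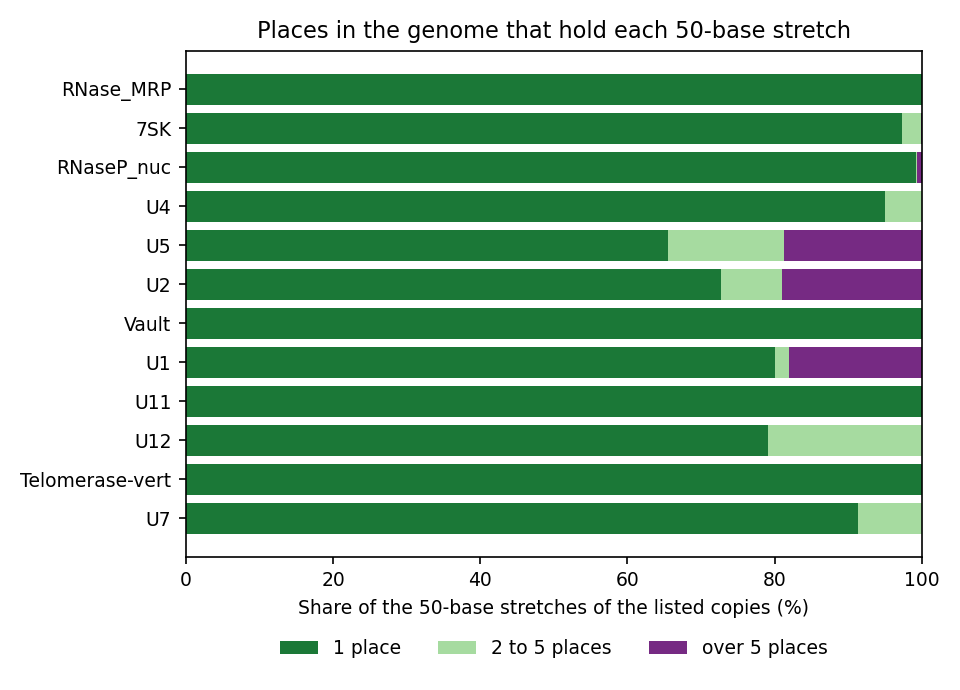
For each RNA class, the share (x axis, %) of all 50-base stretches of the listed copies that occur at 1 place of the genome (dark green), at 2 to 5 (light green) or at over 5 (purple). U1, U2 and U5 have 18.03%, 19.0% and 18.8% of stretches at over 5 places, and RNase_MRP, U11, Vault and Telomerase-vert have only unique stretches.

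Reads were shared among places in the genome. In genes of up to 2500 bases, no value above 0 was below 0.18 of a read. Of the copies, 18 in ES cells and 23 in forebrain had above 0 but under 0.95 of a read, among them values within 0.02 of 1/2, 1/3, 1/4 and 1/5. The U6 class, which is no member, had 24.7% of stretches at over 5 places. Its 431 listed copies summed to 44103 RPKM in ES cells and 24610 in forebrain, a ratio of 1.79. The listed level of U6 was far below that of U4, with which it pairs in the spliceosome. Of U4 stretches, 0% lie at over 5 places, so this gap may not reflect amounts of RNA. The other comparison classes had summed ratios of 1.62 (U6atac, 38422 and 23645), 1.37 (U4atac, 14914 and 10878), 0.803 (Y_RNA, 2601137 and 3240290) and 1.69 (5S_rRNA, 1514 and 897). The 2 minor-spliceosome RNAs U6atac and U4atac were higher in ES cells where U11 was lower.

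Many copies lie inside other genes. Of the 384, 114 lie in a gene on the same strand (110 in an intron and 4 in an exon), 81 in a gene on the opposite strand and 189 in none. The same-strand group held 2.00% of the summed level in ES cells and 3.02% in forebrain, so the sum over all classes rests mainly on the others. This does not hold for each class alone: the same-strand copy Rnu7 held 22.9% and 44.3% of U7. Over the 81 same-strand copies with at least 3 reads in a listed host, the log2 ratios of copy and host had a Spearman correlation of 0.55, and over 61 opposite-strand copies one of 0.57. These points share libraries and may share reads. This holds for the opposite strand too, since whether reads were counted by strand is not given in the sources used here. Of 24 same-strand copies whose host was past 4-fold, 18 had the same direction as the host, and of 19 such opposite-strand copies 15 had. The median log2 ratio of the same-strand copies was 0.28 for the 7 with a host higher in ES cells and -2.43 for the 17 with a host higher in forebrain.

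Some copies with large differences, chosen after their values were seen, had the direction of their hosts and others did not. A U1 copy at chr1:120578398-120578527 (+ strand, ENSMUSG00000088363), 63.4% identical to Rnu1a1, lies in an exon of Tcfcp2l1, a transcription factor of ES cells, and was at 6151 RPKM in ES cells and 6.30 in forebrain (654 and 1 reads), where Tcfcp2l1 was at 3898 and 5.26. Its ratio of 976 has a counting interval of 174 to 38576. A U1 copy in an intron of Dach1 (ENSMUSG00000089549) was at 0 and 106 RPKM, at least 4.69-fold higher in forebrain against a floor of 3 reads, where Dach1 was at 0.50 and 246. A U1 copy in an intron of Cdon (ENSMUSG00000065934) was at 11.3 and 182 RPKM, where Cdon was at 86.9 and 1001. A U1 copy in an intron of Cdyl on the same strand (ENSMUSG00000065178) was at 0 and 133 RPKM, at least 5.14-fold higher in forebrain, where Cdyl was at 311 and 267. The copies ENSMUSG00000064802 and ENSMUSG00000065746, at 0 and 126 RPKM and at 0 and 116 RPKM, lie in no gene. Without the Tcfcp2l1 copy the U1 ratio was 1.35 in place of 1.41.

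The genes for the proteins that carry these RNAs differed little as a whole. Of 142 listed genes in 14 protein lists, 14 were over 2-fold higher in ES cells and 7 in forebrain, where 23.3% and 25.8% of all listed genes, and 3697 and 5470 of 19620 protein-coding genes, were. The median log2 ratio was 0.22, beside -0.01 for all listed genes and -0.17 for protein-coding genes. Among spliceosomal proteins, 0 of 3 U1, 0 of 11 U2 and 0 of 8 Sm protein genes passed 2-fold in either direction. Of 15 tri-snRNP genes, 1 did: Nhp2l1, which binds the U4 stem, at 154 RPKM in ES cells and 70.2 in forebrain. The U5 protein Txnl4a was at 2289 and 1179 and Usp39 at 1075 and 1987.

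The minor spliceosome list held genes of both directions. Of 8 U11/U12 protein genes, 3 were over 2-fold higher in forebrain, where 25.8% of all listed genes were: Snrnp35 at 96.5 RPKM in ES cells and 259 in forebrain, Zcrb1 at 116 and 309, and Zmat5 at 140 and 354. The remaining 5 had ratios from 1.18 to 1.95 on the ES cell side, and the list's median log2 ratio was 0.29. The U7 list had 1 gene past 2-fold in each direction: Zfp473, a zinc finger protein of histone mRNA processing, was at 331 and 32.1, and the U7 ring protein Lsm11 at 88.0 and 184. Lsm10 was at 476 and 559.

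Few assembly and synthesis genes passed 2-fold. Of 16 snRNP assembly genes, 2 were over 2-fold higher in ES cells, where 23.3% of all listed genes were: Ddx20 (Gemin3 of the SMN complex) at 2378 RPKM in ES cells and 898 in forebrain, and Wdr77, a partner of the Sm methylase Prmt5, at 1822 and 707. Gemin5, which recognises the snRNA, was at 2456 and 1249. Of 20 genes of snRNA transcription and processing, 1 passed: Snapc4 of the snRNA promoter complex, at 494 and 230. The Integrator genes Ints8 and Ints6 were at 846 and 1640 and at 904 and 522, and the list's median log2 ratio was -0.04. For RNA polymerase III, which makes 7SK, RNase P, RNase MRP, U6 and vault RNA, 3 of 20 genes were higher in each direction, among them the alternative subunits Polr3g at 1455 and 344 and Polr3gl at 125 and 406, and the subunit Polr3k at 475 and 1268.

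The lists for the single RNAs showed larger differences in a few genes. Of 10 RNase P and RNase MRP protein genes, 4 were over 2-fold higher in ES cells and 0 in forebrain, where 23.3% and 25.8% of all listed genes were: Rpp25 at 1233 RPKM in ES cells and 4.87 in forebrain, Pop1 at 1425 and 617, Pop5 at 1903 and 860, and Rpp40 at 353 and 169. The other 6 lay between ratios of 0.906 and 1.37. Mvp, the main protein of the vault, was at 451 and 92.9 RPKM, while Tep1 was at 101 and 71.6 and Parp4 at 21.6 and 26.4. Of the telomerase and H/ACA genes, Nhp2 was at 3960 and 1252, Dkc1 (dyskerin) at 3203 and 1710, Nop10 at 2253 and 1441, and Tert, the catalytic subunit, at 166 and 175. Of the 7SK partners, 0 of 7 passed 2-fold, with Hexim1 at 708 and 371, Cdk9 at 433 and 298, and Mepce at 738 and 586. The SRP list had 0 of 10 past 2-fold, with Srpr at 717 and 442, Srp68 at 776 and 1167, and Srp19 at 419 and 295.

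**Figure D5:**
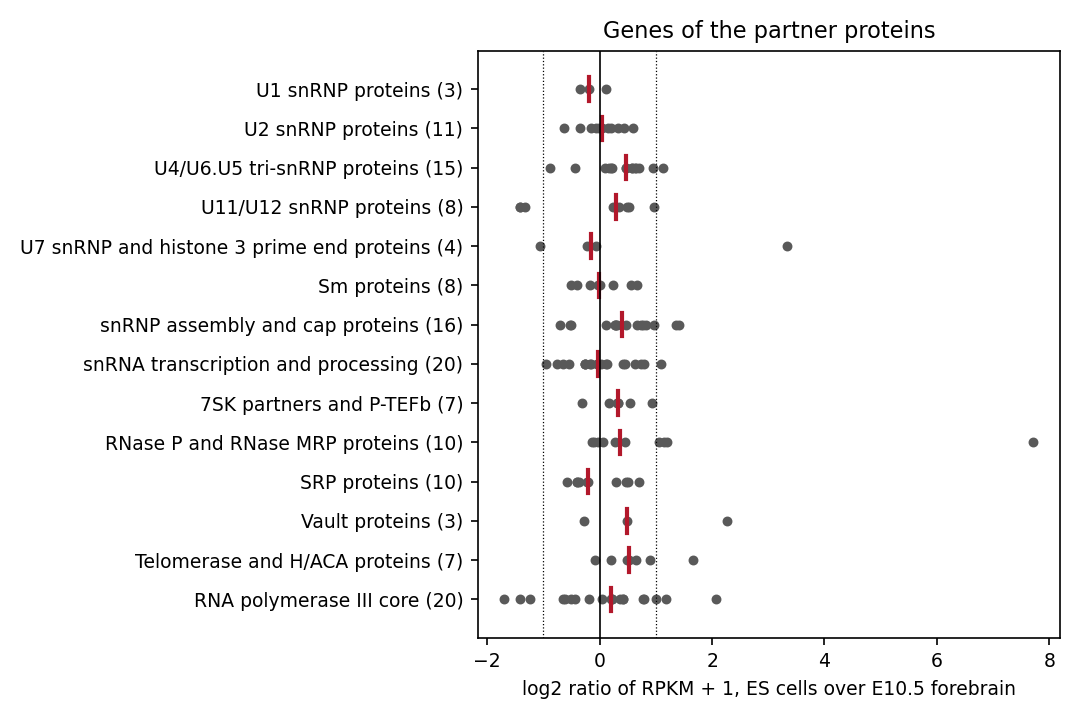
Log2 ratio of RPKM + 1, ES cells over E10.5 forebrain (x axis), for each listed gene (grey points) of 14 lists of partner proteins, with the list median in red and dotted lines at 2-fold. Rpp25 (1233 and 4.87 RPKM) stands far to the right in the RNase P and RNase MRP list, and most other genes lie between the dotted lines.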

How the data were processed

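RNA-seq was made from 2 samples, 1 per cell type, by strand-specific libraries of ribosome-depleted RNA. The authors mapped reads to NCBIM37 (mm9) with the HTSstation pipeline, the submitters' processing notes name Bowtie 0.12.7, and they deposited 1 RPKM value per gene. Neither the sharing of multiply mapped reads nor the scale of the values is given in the sources used here. Reads were inferred as RPKM times exonic length over the step of 1 read, 1.222 per kb in ES cells and 0.8197 in forebrain. Of low values, 66.5% and 69.5% came within 0.05 of whole reads, so they are estimates. Exact intervals at 95% cover counting error only. For a class sum the interval is that of the ratio of summed inferred reads, rounded to whole reads and brought to the RPKM scale. It is not an interval of the ratio of summed RPKM beside which it stands. Ratios are of deposited RPKM. Counts past 2-fold use log2(RPKM + 1). A floor of 3 reads was used for genes at 0.

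Exonic lengths, hosts and sequences came from the annotation and genome of that build, where all 29311 genes matched. Of 18 RefSeq single-locus genes (an assembly of another build, used for names and neighbours), 16 were placed where the distance to a protein-coding neighbour was within 150 bases of that in RefSeq, 13 of them on a copy with a class name. Identity was 1 minus the edit distance over the longer length. Named copies were the 3 highest of each class, the RefSeq genes, and of each protein list up to 3 of those with the largest log2 ratio in size. Tert, Rpp40 and some outlying copies were named outside this rule, after their values were seen. The sequence of U5 is not reported here. The members and lists were chosen with earlier results of these data known. Scripts, tested on simulated data, used Python 3.11.15, numpy 2.4.6, pandas 2.3.3, scipy 1.17.1 and matplotlib 3.10.9.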

Additional observations from a re-analysis of the deposited data

How the results depend on the processing

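No paired analysis was possible because each cell type is 1 sample. Leaving out a replicate was not possible either. Of 156 alternatives, 7 of them chosen after seeing the data, 75 stayed within the counting interval or within 1.5-fold of the reported count, 77 moved and 4 turned direction. The ratio of summed RPKM over all copies was 0.989 with samples scaled to their totals, 1.27 by upper quartile, 1.12 by inferred reads, 1.31 by the median ratio of protein-coding genes, 1.31 without the highest copy of each class, 1.20 from reads, and 1.15 with the Rpph1, Rn7s1 and Rn7s2 loci. The U5 ratio turned to 0.957 and the U12 ratio to 0.867 with samples scaled to their totals, and U12 to 0.982 by inferred reads. The share of summed RPKM in ES cells and forebrain was 20.9% and 21.1% with identical copies counted once, 6.09% and 5.64% without the highest copies, 20.9% and 21.1% with full-length copies only, 6.52% and 5.77% of reads, 52.7% and 48.4% of protein-coding genes plus the copies, and 39.1% and 41.1% with the 3 added loci. Copies over 2-fold higher in ES cells numbered 59 with at least 3 reads and 24 with at least 20, and those higher in forebrain 37 and 8, and 49 without copies inside a gene on the same strand. The median log2 ratio was 0.0095 with samples scaled to their totals, which lowers all genes alike by 0.27, and 195 copies had at least 3 reads in ES cells. The cause of moves other than fewer copies counted or another scale was not tested.

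With 1 library per cell type, no spread between samples is known. Depth limits U7 and the copies of few reads, and near-identical copies limit U1, U2 and U5, whose levels by copy depend on how reads were shared.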
